A study of Mus musculus with 12 samples.

Results

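The platelet-derived growth factors signal through a pair of receptor tyrosine kinases, and the 6 genes that encode the murine ligands and receptors were examined here. They were taken by symbol from the 50559 genes of the count table, and all 6 were present: the ligand genes Pdgfa, Pdgfb, Pdgfc and Pdgfd and the receptor genes Pdgfra and Pdgfrb. RNA was measured by RNA-Seq in 12 libraries from whole retinas of WT C57BL/6J mice, 3 in each of 4 groups, collected at P28. All pups received 30 µg of antibody on P1, either an isotype control IgG or APB5, a rat monoclonal antibody that blocks PDGFRβ. The groups IgG and APB5 had no further treatment, whereas IgG+Mino and APB5+Mino were given the tetracycline minocycline each day from P5 to P27, at 45 mg/kg. The antibody was systemic, so PDGFRβ was not blocked in 1 cell type alone, and it acts on the protein, so the mRNA of its target cannot serve as a check of the labels.

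PDGF ligands are secreted dimers. PDGFA and PDGFC act mainly through PDGFRα, PDGFB binds both receptors, and PDGFD acts mainly through PDGFRβ, while PDGFC and PDGFD are made as latent forms that proteases activate. In the retinal vasculature, endothelial PDGFB recruits PDGFRβ-bearing pericytes. In the nerve fiber layer, neuron-derived PDGFA drives the spread of astrocytes, which carry PDGFRα. Fibroblasts of vessel walls and meninges can carry both receptors, and PDGFRα also marks oligodendrocyte precursors.

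On GRCm39, Pdgfra spans chr5:75311994-75358876 on the plus strand. Among the ligand genes, Pdgfa lies at chr5:138961758-138983435 (minus), Pdgfb at chr15:79880009-79899181 (minus), Pdgfc at chr3:80943668-81121473 (plus) and Pdgfd at chr9:6168240-6379265 (plus). All but Pdgfrb overlap annotated genes on the opposite strand, among them Gm42802 and Gm42803 for Pdgfra and Gm16000 for Pdgfc. Use of strand in the counting is not given in the sources used here, so reads of these neighbors could not be told apart from those of the PDGF genes.

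The 250 bases before the RefSeq start sites of Pdgfra and Pdgfc are shown because these genes had the widest differences between groups in the results that follow. The windows are those of GRCm38.p6, plus strand, at chr5:75152001-75152250 for Pdgfra and chr3:81036166-81036415 for Pdgfc, written 5′ to 3′, and capitals mark matches to 8 short motifs searched on both strands.
Pdgfra: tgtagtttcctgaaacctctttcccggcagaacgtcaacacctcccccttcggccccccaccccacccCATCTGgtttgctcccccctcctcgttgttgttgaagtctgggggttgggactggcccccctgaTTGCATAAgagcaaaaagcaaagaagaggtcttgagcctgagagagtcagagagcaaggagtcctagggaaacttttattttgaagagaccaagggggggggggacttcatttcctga
Pdgfc: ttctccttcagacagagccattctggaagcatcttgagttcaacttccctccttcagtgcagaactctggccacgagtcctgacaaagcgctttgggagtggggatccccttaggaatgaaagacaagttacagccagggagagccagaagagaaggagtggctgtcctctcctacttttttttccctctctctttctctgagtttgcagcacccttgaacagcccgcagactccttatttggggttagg

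The motifs were chosen with the windows seen, and N stands for any base. Of all 32851 such windows in the table, 12.4% held the motif TATAAA, 33.8% held the motif CCAAT and 32.7% held the motif GGGCGG. The motif TGANTCA was in 6.75% of windows, the motif TTCNNNGAA in 7.02% and the motif ACGTG in 16.6%. The motif CANNTG was in 66.2% and the motif TTGCNNAA in 9.56%. In the Pdgfra window, CANNTG began 182 bases and TTGCNNAA 118 bases before the start site, and the pair did not overlap. None of the 8 was in the Pdgfc window. Of the other windows of PDGF genes used here, that of Pdgfd held TATAAA, and both of Pdgfa held GGGCGG. Windows of Pdgfb and Pdgfrb were not searched. A match describes the letters of the window and is not evidence of a bound factor.

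The table gave 52740545 to 59411044 reads per library, and the 6 genes had from 65 reads (Pdgfb, an IgG+Mino library) to 4393 reads (Pdgfra, an APB5 library). Values are CPM, the reads of a gene scaled to a common library total with the TMM factors of edgeR. To be called, a gene needed both an adjusted P no higher than 0.05 and a log2 fold change of 1 or more in either direction, by the quasi-likelihood test of edgeR, adjusted over all genes tested by the method of Benjamini and Hochberg. An exact two-sided permutation test of 3 libraries against 3 has a smallest P of 0.1. The labels call the libraries of a group replicates without naming the animals, so P values measure the spread between these libraries.

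A single library, APB5 replicate 3, stood apart from the other 11 before any comparison was made. Its score on the first principal component (38.4% of the variance) was 126.4, against −53.9 to 25.7 in the rest. Gnat1, the rod transducin gene, had 2802 CPM there and 9470 to 15514 CPM in the other 11 libraries. Thus the retinal identity of all libraries was clear from Gnat1, which was far above any PDGF gene, but this rod RNA had a smaller share of APB5 replicate 3. Most fold changes that include the APB5 group are also given without this library, and values in CPM are given per library or as a range that includes it. The libraries also differed in Xist, the RNA of the silenced X of female cells. It reached 47210 reads or more in each IgG library and in replicate 3 of both APB5 and APB5+Mino, while no other library had more than 38 reads.

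On a scale corrected for the exonic length of each gene (RPKM, the CPM per kilobase of the union of its exons), Pdgfrb had the highest level of the 6 genes in the IgG retina, 1.91 ± 0.493 RPKM (mean ± SD, n = 3). Pdgfa followed with 1.21 ± 0.0892 RPKM and Pdgfra with 0.992 ± 0.101 RPKM. Pdgfrb and Pdgfa did not overlap, nor did Pdgfa and Pdgfra, whose ranges were 1.14 to 1.31 RPKM and 0.882 to 1.08 RPKM. Pdgfb (0.703 ± 0.145 RPKM), Pdgfc (0.598 ± 0.0650 RPKM) and Pdgfd (0.588 ± 0.0889 RPKM) were lower and did not differ beyond their spread. In the APB5 group Pdgfra was first with 3.05 ± 1.98 RPKM and Pdgfrb second with 2.87 ± 1.58 RPKM, an order within the spread, and in APB5+Mino Pdgfrb was first again with 1.81 ± 0.0468 RPKM. With the length of the longest transcript in place of the union, the top 3 genes of each group kept their order, whereas Pdgfb moved from rank 4 to rank 6 in IgG and in APB5. The gap between Pdgfrb and Pdgfa in IgG was not kept, however. By this length they had 2.55 ± 0.656 RPKM and 2.47 ± 0.182 RPKM, a difference within the spread.

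**Figure D1:**
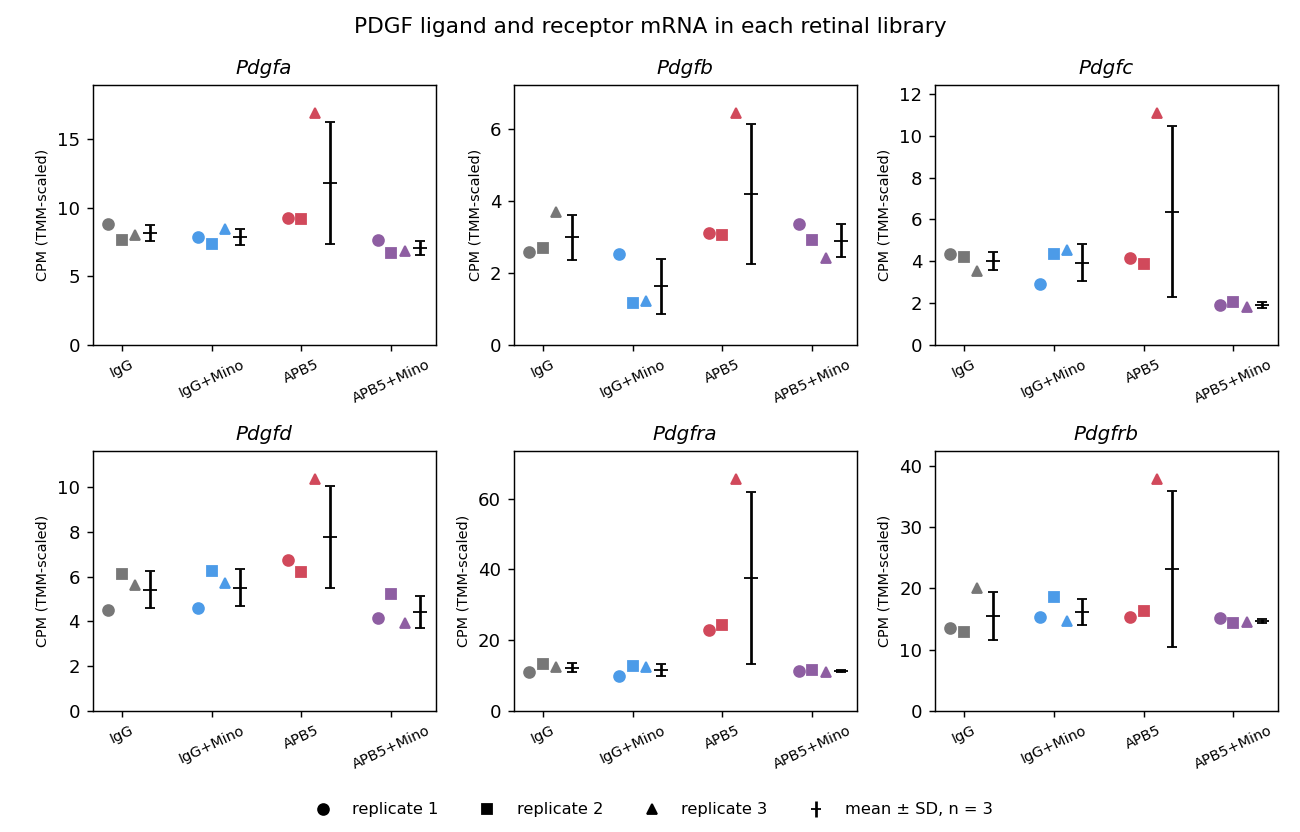
Level of each PDGF gene (vertical axis, TMM-scaled CPM from 0) in each of the 12 libraries, by group, with the group mean ± SD (n = 3) in black. APB5 replicate 3 (red triangle) is the highest library in every panel, Pdgfra is raised in all 3 APB5 libraries, and Pdgfc is lowest in the APB5+Mino group.

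Pdgfra, the receptor gene for PDGFA and PDGFC, had 10.9, 13.3 and 12.5 CPM in the IgG libraries. In the APB5 libraries it had 22.8, 24.2 and 65.6 CPM. All 3 APB5 libraries lay above all IgG libraries, and the lowest of them was still above every IgG, IgG+Mino and APB5+Mino library. Replicate 3 had 2.79 times the mean of the other APB5 libraries. The log2 fold change of APB5 against IgG was 1.64 (3.11-fold, SE 0.42, 95% CI 0.66 to 2.62), with an adjusted P of 0.664, and it was not called. It was 0.94 when APB5 replicate 3 was left out (adjusted P = 0.121 by edgeR), and in that fit all APB5 libraries are low and all IgG libraries high in Xist. IgG+Mino libraries, which are low in Xist as well, had 9.68, 12.8 and 12.2 CPM of Pdgfra, overlapping the IgG group.

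Pdgfrb, the gene of the receptor that APB5 blocks, spans chr18:61178212-61218133 on the plus strand of GRCm39. It had 13.6, 12.8 and 20.1 CPM in IgG and 15.4, 16.3 and 38.0 CPM in APB5. The groups overlapped, since IgG replicate 3 lay above APB5 replicates 1 and 2. The log2 fold change was 0.60 (SE 0.38, 95% CI −0.29 to 1.498, adjusted P = 0.707 by edgeR), and 0.034 without APB5 replicate 3. Pdgfrb mRNA was thus not detectably lower at P28 after the antibody was given on P1. In bulk tissue, fewer cells of a type and less RNA per cell cannot be told apart.

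The 4 ligand genes differed less between APB5 and IgG than Pdgfra did. Pdgfa, the ligand for PDGFRα, had 8.85, 7.68 and 8.0 CPM in IgG and 9.27, 9.22 and 16.9 CPM in APB5, which did not overlap, with a log2 fold change of 0.55 (SE 0.28). Pdgfd had 4.51, 6.11 and 5.63 CPM in IgG and 6.74, 6.19 and 10.4 CPM in APB5, also without overlap and with a log2 fold change of 0.53 (SE 0.26). In both genes the gap between the groups was small, and APB5 replicate 3 alone was far from IgG.

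Pdgfb, the endothelial ligand that recruits pericytes, had 2.57, 2.70 and 3.70 CPM in IgG and 3.11, 3.05 and 6.45 CPM in APB5. Pdgfc had 4.32, 4.18 and 3.51 CPM in IgG and 4.14, 3.87 and 11.1 CPM in APB5. Both overlapped between the groups, with log2 fold changes of 0.51 (SE 0.36) and 0.69 (SE 0.43). Leaving APB5 replicate 3 out gave log2 fold changes of 0.18, 0.046, 0.0034 and 0.26 for Pdgfa, Pdgfb, Pdgfc and Pdgfd. In every one of the 6 genes APB5 replicate 3 was the highest of the 12, at 1.61 to 2.79 times the mean of the other APB5 libraries.

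In APB5 against IgG, 0 of the 6 genes were called, and 0% of the 20350 genes tested were, with or without the fold threshold. At an unadjusted P under 0.05, 1 of the 6 passed (Pdgfra), against 7.23% of all genes. DESeq2 called 1, Pdgfra (adjusted P = 0.0205), and 0.428% of all genes, while limma's voom with quality weights called 0 of the 6 and 0.133% of all genes. For 3 of the 6 (Pdgfa, Pdgfd and Pdgfra) the APB5 libraries all lay above the IgG libraries, which held for 7.79% of all genes, and for none did they all lie below, which held for 7.89%. The median log2 fold change of all genes was −0.0024.

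**Figure D2:**
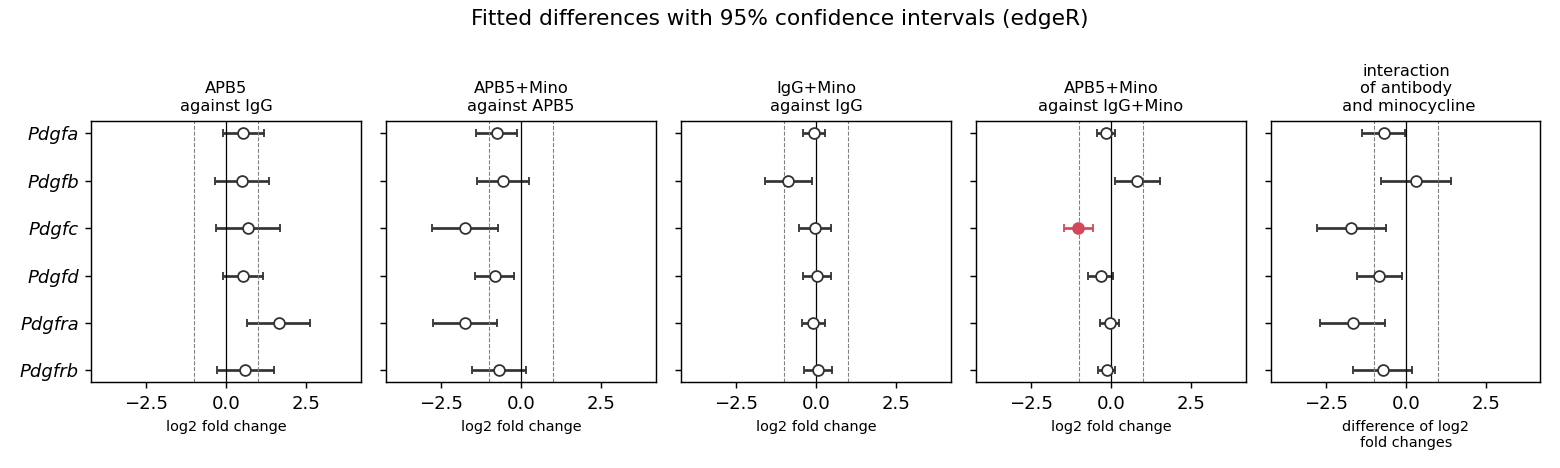
Fitted log2 fold change of each PDGF gene in 4 pairs of groups, and the difference of log2 fold changes for the interaction, with 95% confidence intervals from edgeR and dashed lines at log2 values of −1 and 1. The filled red point, Pdgfc in APB5+Mino against IgG+Mino, is the only one called, and Pdgfra and Pdgfc lie furthest below 0 in APB5+Mino against APB5.

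The comparison of APB5+Mino with APB5 asks how the retina differed when minocycline followed the antibody. Pdgfra had 11.3, 11.5 and 10.9 CPM in the APB5+Mino libraries, which all lay below the 22.8 CPM of the lowest APB5 library and within the range of IgG. Its log2 fold change was −1.76 (3.39-fold lower, SE 0.42, 95% CI −2.76 to −0.76, adjusted P = 0.0529 by edgeR), just short of the threshold. Without APB5 replicate 3 the difference was smaller but more even, at −1.07, and was called (adjusted P = 0.000575 by edgeR), as were 4.48% of all genes in that fit. Blocked on replicate number, it was −1.56 (adjusted P = 0.069 by edgeR). It passed without APB5 replicate 2 as well, where 8.59% of all genes were called. It did not pass without any of the other 4 libraries, with adjusted P up to 0.214 (edgeR).

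Pdgfc had 1.90, 2.04 and 1.79 CPM in APB5+Mino, from 95 to 106 reads, and at least 3.87 CPM in APB5. Its log2 fold change was −1.75 (3.35-fold lower, SE 0.44, 95% CI −2.78 to −0.71, adjusted P = 0.0562 by edgeR). It was −1.06 when APB5 replicate 3 was left out (adjusted P = 0.00459 by edgeR) and −1.55 in the blocked fit (adjusted P = 0.0778). In the libraries low in Xist alone, replicates 1 and 2 of either group, Pdgfra and Pdgfc differed by −1.05 and −1.02. Both were called (adjusted P = 0.00737 and 0.0289 by edgeR), as were 2.82% of all genes in that fit. Both differences therefore remained without APB5 replicate 3 and among libraries alike in Xist, while their calls depended on which libraries entered the fit.

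The remaining genes were lower in APB5+Mino than in APB5 by less. Pdgfd had 4.13, 5.23 and 3.91 CPM, all below the APB5 libraries (log2 fold change −0.83, SE 0.25, adjusted P = 0.0739 by edgeR). Pdgfa had 7.68, 6.71 and 6.84 CPM, again all below APB5 (−0.75, SE 0.27, adjusted P = 0.0984). Pdgfrb had 15.1, 14.4 and 14.6 CPM against at least 15.4 CPM in APB5, a separation of the groups by a narrow margin (−0.68, SE 0.35, adjusted P = 0.208), and −0.11 without APB5 replicate 3. Pdgfb had 3.35, 2.92 and 2.43 CPM and overlapped APB5 (−0.55, SE 0.34, adjusted P = 0.278). With APB5 replicate 3 left out, Pdgfd, Pdgfa and Pdgfb had −0.55, −0.39 and −0.092.

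None of the 6 was called in APB5+Mino against APB5, where 1.66% of the 20281 genes tested were, and 4.82% had an adjusted P of at most 0.05 at any fold change. Of the latter, 565 genes were higher and 412 lower. Here and below, the shares of all genes that passed the adjusted P count both directions, also where they stand beside genes that fell or rose. With the replicate block 0 of all genes were called. At an unadjusted P under 0.05, 4 of the 6 passed, against 35.9% of all genes. DESeq2 and voom each called 2, Pdgfra and Pdgfc, where they called 7.55% and 7.07% of all genes. For 5 of the 6, all but Pdgfb, the APB5+Mino libraries all lay below the APB5 libraries, against 22.8% of all genes, and for none did they lie above, against 23.5%. This comparison uses the same APB5 libraries as APB5 against IgG, so a high APB5 library raises the one difference and lowers the other.

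Of the 6 genes, 5 overlapped between IgG+Mino and IgG. In IgG+Mino Pdgfa had 7.86, 7.33 and 8.44 CPM, Pdgfc 2.91, 4.34 and 4.53 CPM, Pdgfd 4.58, 6.23 and 5.72 CPM and Pdgfrb 15.3, 18.6 and 14.7 CPM. Each of these, and Pdgfra, overlapped IgG and had a log2 fold change between −0.078 and 0.064, with 95% confidence intervals that reached no further than −0.52 and 0.50. Pdgfb was the exception, with 2.52, 1.15 and 1.21 CPM (65 to 139 reads). All 3 values lay below the lowest IgG library, though IgG+Mino replicate 1 (2.52 CPM) was close to it (2.57 CPM), and replicates 2 and 3 were the lowest Pdgfb levels of the study. The log2 fold change was −0.86 (SE 0.32, 95% CI −1.59 to −0.14, adjusted P = 0.585 by edgeR). IgG libraries are all high and IgG+Mino libraries all low in Xist, so minocycline and sex cannot be told apart here. With log2 CPM of Xist as a covariate, fitted on all 12 libraries, the log2 fold changes of Pdgfa, Pdgfc and Pdgfra turned to 0.36, 0.69 and 0.66 and that of Pdgfb was −0.47, with 0 called. Within a group, Xist differs widely only between replicate 3 and the other libraries of APB5 and of APB5+Mino. The covariate therefore rests largely on those libraries, APB5 replicate 3 among them, and cannot separate sex from minocycline here.

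In IgG+Mino against IgG 0 of the 6 genes were called, and 0.0298% of the 20143 genes tested were, the same share with and without the fold threshold. Pdgfb alone had an unadjusted P under 0.05, as did 8.37% of all genes. DESeq2 called 0 and voom with quality weights called 1 of the 6, Pdgfb (log2 fold change −1.06, adjusted P = 0.0316), where they called 0.114% and 0.616% of all genes. Pdgfb was the 1 gene of the 6 whose groups did not overlap, lower in IgG+Mino as were 7.35% of all genes, while 7.03% were higher.

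When both groups received minocycline, Pdgfc was the 1 of the 6 genes called between antibodies. The APB5+Mino libraries had 1.79 to 2.04 CPM and the IgG+Mino libraries 2.91 to 4.53 CPM, a log2 fold change of −1.03 (2.04-fold lower, SE 0.20, 95% CI −1.48 to −0.57, adjusted P = 0.0243 by edgeR), and it was called. Its level in APB5+Mino was also below that of every IgG library (3.51 CPM or more), a pair of groups that was not fitted. The call was kept without IgG+Mino replicate 1 (−1.19, adjusted P = 0.00272 by edgeR), where 2.24% of all genes were called. It was lost without any of the other 5 libraries, where the log2 fold change was −1.09 to −0.93 and the adjusted P 0.045 to 0.125 (edgeR). Without APB5+Mino replicate 3, which leaves libraries low in Xist alone, it was −0.98 (adjusted P = 0.125).

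Pdgfb went the other way, with 0.82 (SE 0.31, 95% CI 0.12 to 1.52, adjusted P = 0.119 by edgeR), where the groups overlapped at 2.43 and 2.52 CPM. Without IgG+Mino replicate 1 it was 1.28 and passed (adjusted P = 0.00584 by edgeR), in a fit where 16.4% of all genes passed the adjusted P and 2.24% were called. Pdgfra, Pdgfrb, Pdgfa and Pdgfd overlapped between these groups, with log2 fold changes of −0.039, −0.14, −0.15 and −0.31 and confidence intervals between −0.70 and 0.25. For Pdgfra, which was higher in each APB5 library than in any IgG library, the interval here was −0.33 to 0.25.

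Of the 20049 genes tested in APB5+Mino against IgG+Mino, 1.23% were called and 8.09% had an adjusted P of at most 0.05, and 1 of the 6 PDGF genes did both. Genes of several cell types also passed the adjusted P here. Cox4i2 and Vtn of the pericyte list fell (−0.73 and −0.35) and Mcam rose (0.74), Cldn5 (endothelial) had −0.84, Gfap (astrocyte) −0.64, Gnat1 (rod) −0.47, and C1qa and Cx3cr1 (microglia) −0.89 and −2.21, with adjusted P of 0.0125 to 0.0457 (edgeR). Their part in the Pdgfc difference was not tested. Among the 6 PDGF genes the groups did not overlap for Pdgfc alone, lower in APB5+Mino as were 17.6% of all genes, and for none in the other direction, against 17.7%.

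The interaction asks whether the difference between antibodies depended on minocycline. On the log2 scale it was −1.67 for Pdgfra (SE 0.46, adjusted P = 0.161 by edgeR) and −1.70 for Pdgfc (SE 0.50, adjusted P = 0.172). Pdgfd, Pdgfrb and Pdgfa had −0.84, −0.73 and −0.69, and Pdgfb 0.32. None of the 6 was called, and 0.0141% of 21228 genes were, again the same share without the fold threshold. At an unadjusted P under 0.05, 4 of the 6 passed (Pdgfra, Pdgfc, Pdgfd and Pdgfa), against 17.1% of all genes. DESeq2 and voom with quality weights each called Pdgfra and Pdgfc, and 1.86% and 4.93% of all genes. With APB5 replicate 3 left out, the values of Pdgfra and Pdgfc were −0.999 and −1.04 (adjusted P = 0.0516 and 0.115 by edgeR). Those of Pdgfd, Pdgfrb and Pdgfa were then −0.58, −0.19 and −0.35.

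Differences between a pair of genes within a library do not depend on how libraries are scaled, and they were taken on log2 CPM, which does not correct for gene length. Pdgfra minus Pdgfrb was 0.64 ± 0.13 in APB5 (mean ± SD, n = 3, from 0.57 to 0.79). It was −0.32 ± 0.37 in IgG, −0.49 ± 0.20 in IgG+Mino and −0.39 ± 0.055 in APB5+Mino. All 3 APB5 libraries lay above the other groups, whose highest value was 0.056, and APB5 replicate 3 was close to the rest of its group by this measure. The balance of the receptor genes was thus shifted toward Pdgfra by a like amount in each APB5 retina.

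Pdgfc minus Pdgfra, the ligand against its receptor, gave another order of the groups. It was −2.55 ± 0.089 in APB5 and −2.54 ± 0.058 in APB5+Mino, against −1.60 ± 0.25 in IgG and −1.57 ± 0.15 in IgG+Mino. The libraries of both APB5-treated groups lay at −2.45 or below and those of both IgG groups at −1.82 or above. In APB5 this went with a high Pdgfra, and in APB5+Mino with a low Pdgfc. For Pdgfa, another ligand of this receptor, the difference from Pdgfra was −1.54 ± 0.36 in APB5 but −0.67 ± 0.11 in APB5+Mino. It was −0.57 ± 0.25 in IgG and −0.54 ± 0.25 in IgG+Mino. Pdgfb minus Pdgfrb was −2.42 ± 0.13, −2.34 ± 0.21 and −2.35 ± 0.10 in APB5, APB5+Mino and IgG, and −3.37 ± 0.71 in IgG+Mino, where Pdgfb was low.

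**Figure D3:**
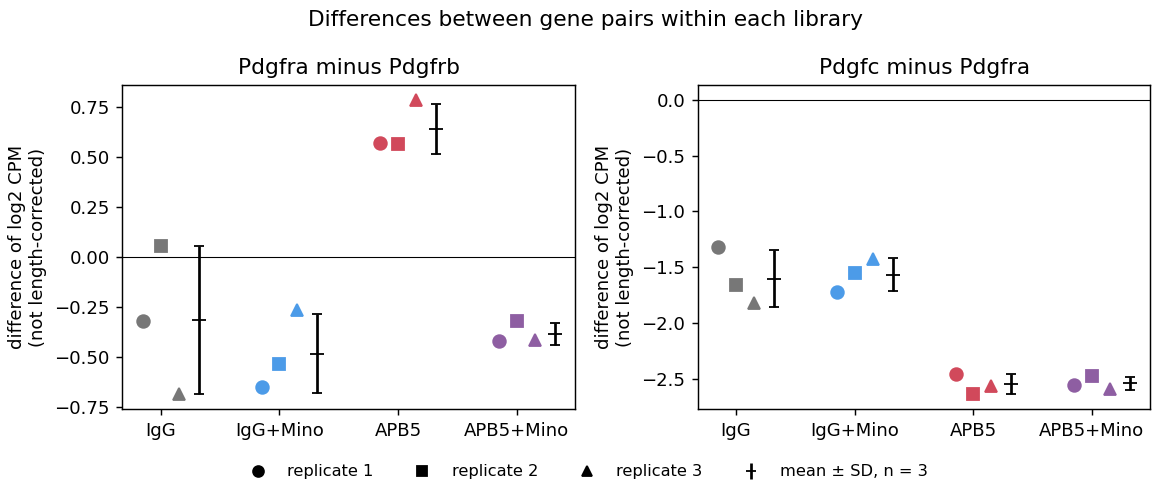
Difference of log2 CPM (vertical axis, not corrected for length) between Pdgfra and Pdgfrb (left) and between Pdgfc and Pdgfra (right) in each library, with mean ± SD (n = 3) in black. On the left the 3 APB5 libraries lie at 0.57 to 0.79, above the other groups, and on the right the APB5 and APB5+Mino libraries lie below both IgG groups.

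Markers of some cell types also differed between the groups, though in APB5 against IgG no gene passed the adjusted P with all libraries. The calls of marker and pathway genes in APB5+Mino against APB5 made with all libraries and given from here on were lost with the replicate block, under which the smallest adjusted P of any gene was 0.0641 (edgeR). The 6 retinal astrocyte markers, led by Gfap, summed to 204, 206 and 1123 CPM in the APB5 libraries, 97.7 to 121 CPM in IgG and 63.2 to 70.8 CPM in APB5+Mino. Gfap, an intermediate filament that Müller glia also make when reactive, had 130, 147 and 1010 CPM in APB5 against 50.6 ± 3.75 CPM in IgG (n = 3). Its log2 fold change was 3.11 in APB5 against IgG (adjusted P = 0.664 by edgeR) and −3.79 in APB5+Mino against APB5 (adjusted P = 0.0514). With APB5 replicate 3 left out these were 1.45 and −2.13 (adjusted P = 0.0117 and 0.000244 by edgeR), where 0.101% and 26.6% of all genes passed. Gja1, a gap junction gene, and S100b, a calcium-binding protein gene, were called lower in APB5+Mino than in APB5 (log2 fold changes −1.67 and −1.29, adjusted P = 0.0499 and 0.0461 by edgeR). These were 2 of the 6 markers, where 1.66% of all genes were called and 4.82% passed the adjusted P. Gja1 and S100b had −1.25 and −0.9997 with APB5 replicate 3 left out. In that fit all 6 markers fell by adjusted P (median −1.05), where 26.6% of all genes passed in either direction. Pdgfra was above the mean log2 CPM of the astrocyte markers by 0.98 ± 0.19 in APB5 and 0.94 ± 0.044 in APB5+Mino, and by 0.51 ± 0.10 in IgG and 0.64 ± 0.23 in IgG+Mino. Against other lists the order of the groups was another. Relative to the Müller glia markers Pdgfra had −2.85 ± 0.80 in APB5, −4.14 ± 0.18 in IgG, −4.37 ± 0.14 in IgG+Mino and −4.16 ± 0.0055 in APB5+Mino. Relative to the fibroblast markers it had 1.81 ± 1.35, 2.13 ± 0.68, 2.92 ± 0.92 and 3.05 ± 0.52 in the same groups. The part of astrocyte RNA in the Pdgfra levels was not tested.

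Fibroblast, smooth muscle and pigment epithelium markers were highest in APB5 replicate 3. The 6 fibroblast markers, of which Fbln1 was the most abundant in IgG, summed to 813 CPM in APB5 replicate 3 and to 103 and 105 CPM in APB5 replicates 1 and 2, where the IgG libraries had 42.8 to 108 CPM and the APB5+Mino libraries 32.3 to 48.5 CPM. Fbln1, a matrix protein gene, was called lower in APB5+Mino than in APB5 (log2 fold change −1.47, adjusted P = 0.043 by edgeR), and had −1.35 with APB5 replicate 3 left out, when 3 of 5 fibroblast genes (with Col1a2 and Col3a1) and 4 of 4 smooth muscle genes fell, against 26.6% of all genes passing. The 5 vascular smooth muscle markers, led by Acta2, a contractile actin gene, summed to 28.9, 24.3 and 283 CPM in APB5 and to at most 22.3 CPM in the other groups, so that, like Pdgfra, they were above every IgG, IgG+Mino and APB5+Mino library in each APB5 library. Acta2 had 8.79, 7.61 and 161 CPM in APB5 and 3.73 to 5.55 CPM in IgG, and its log2 fold change was 3.73 (adjusted P = 0.664 by edgeR), or 0.86 with APB5 replicate 3 left out. In APB5+Mino against APB5 it had −4.12 (adjusted P = 0.0755 by edgeR), and −1.25 without that library (adjusted P = 0.0062). The 7 pigment epithelium markers, led by Ttr, summed to 545 CPM in APB5 replicate 3 and to at most 119 CPM elsewhere. They had 85.6 and 82.1 CPM in APB5 replicates 1 and 2 and 31.3 to 55.6 CPM in APB5+Mino. With APB5 replicate 3 left out, 4 of the 7 fell in APB5+Mino against APB5 (median −0.89), against 26.6% of all genes. Within these lists, Lum was at 0 in 3 libraries and Cnn1 in 2. In APB5 replicates 1 and 2, Pdgfra was above every IgG library while the fibroblast sum lay within the range of IgG and the smooth muscle sum above it. Most of that fibroblast sum was Fbln1 (78.5 and 67.4 CPM). Of the 5 fibroblast genes tested, 1, Col1a2, was above IgG in each APB5 library, as were 7.79% of all genes. Col1a2 had at least 16.6 CPM in APB5 and at most 13.6 CPM in IgG. Its log2 fold change was 3.49 (adjusted P = 0.664 by edgeR), and 1.13 without APB5 replicate 3 (adjusted P = 0.598). The part of these cells in the levels of the PDGF genes was not tested.

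The oligodendrocyte lineage, whose precursors carry PDGFRα elsewhere in the nervous system, was checked with 8 markers. Olig2 was at 0 in 11 of the libraries and had 1 read in the last, Olig1 had at most 12 reads, and Mog and Mobp, genes of mature myelinating cells, had at most 2 and 5. Sox10, a transcription factor of oligodendrocytes that Schwann cells and melanocytes also make, had 6.10 CPM in APB5 replicate 3 and at most 1.01 CPM in the other 11 libraries. Its log2 fold changes were 2.34 in APB5 against IgG and −3.44 in APB5+Mino against APB5 (adjusted P = 0.664 and 0.0849 by edgeR), and −0.040 and −1.06 with APB5 replicate 3 left out. In APB5 replicates 1 and 2, where Pdgfra was above every IgG library, Sox10 lay within the range of IgG. The part of Sox10-expressing cells in the Pdgfra level of APB5 replicate 3 was not tested. The list of 8 summed to 34.9 to 49.6 CPM, led by Mbp, and its sum in APB5 (42.6 CPM) lay between those of IgG (36.2 CPM) and IgG+Mino (46.6 CPM).

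The 15 pericyte markers summed to 718 to 1168 CPM in IgG, 458 to 802 CPM in APB5 and 615 to 654 CPM in APB5+Mino, but most of the sum was Vtn, an extracellular matrix gene that photoreceptors also transcribe, in every library except APB5 replicate 3 (181 of 458 CPM). Without Vtn, a choice made after its values were seen, the sum was 131, 138 and 158 CPM in IgG and 180, 168 and 277 CPM in APB5, which did not overlap, so APB5 replicate 3 was the lowest library with Vtn and the highest without it. Rgs5, a regulator of G protein signaling, made up much of this sum, with 67.0, 71.2 and 74.0 CPM in IgG and 89.0, 88.0 and 161.5 CPM in APB5. Other members went the other way, Kcnj8 with −0.50 and Atp13a5 with −1.01 on the log2 scale, both without overlap (adjusted P = 0.664 by edgeR). They had −0.64 and −1.12 with APB5 replicate 3 left out. Of the 15 genes, 4 lay higher and 2 lower without overlap, against 7.79% and 7.89% of all genes. Among the 4, Ndufa4l2 had 1.85 and Mcam 0.86 (adjusted P = 0.664 for each), and 1.83 and 0.64 with APB5 replicate 3 left out. In APB5 against IgG 10 of the 15 genes were higher and 5 lower (median 0.45) and 0 passed, and 8 were higher and 7 lower (median 0.012) with APB5 replicate 3 left out. In APB5+Mino the sum without Vtn was 106, 105 and 96.4 CPM, the lowest of the groups. Of the 14 pericyte genes tested in APB5+Mino against APB5, 3 fell by adjusted P and 0 rose, where 4.82% of all genes passed. These were Cox4i2 (−0.85), Ndufa4l2 (−2.79) and Rgs5 (−1.36), with adjusted P of 0.043, 0.0203 and 0.0461 (edgeR). With APB5 replicate 3 left out these had −0.86, −2.77 and −0.99, and 7 of the 14 fell, in a fit in which 26.6% of all genes passed the adjusted P. The median log2 fold change of the 14 was −0.89, against −0.020 for all genes, and −0.54 without that library. Pdgfrb exceeded the mean log2 CPM of the pericyte markers by 1.80 ± 0.17 in IgG, 2.09 ± 0.22 in IgG+Mino, 1.92 ± 0.38 in APB5 and 2.21 ± 0.051 in APB5+Mino (n = 3), values that overlapped between IgG and APB5. Of the 12 endothelial markers, in cells that make PDGFB, 3 fell in APB5+Mino against APB5 (Cldn5, Kdr and Tie1) and 0 rose, again against 4.82% of all genes, and 7 fell with APB5 replicate 3 left out, against 26.6%. The 3 had −1.68, −0.64 and −1.50, and −1.61, −0.60 and −1.16 without that library.

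**Figure D4:**
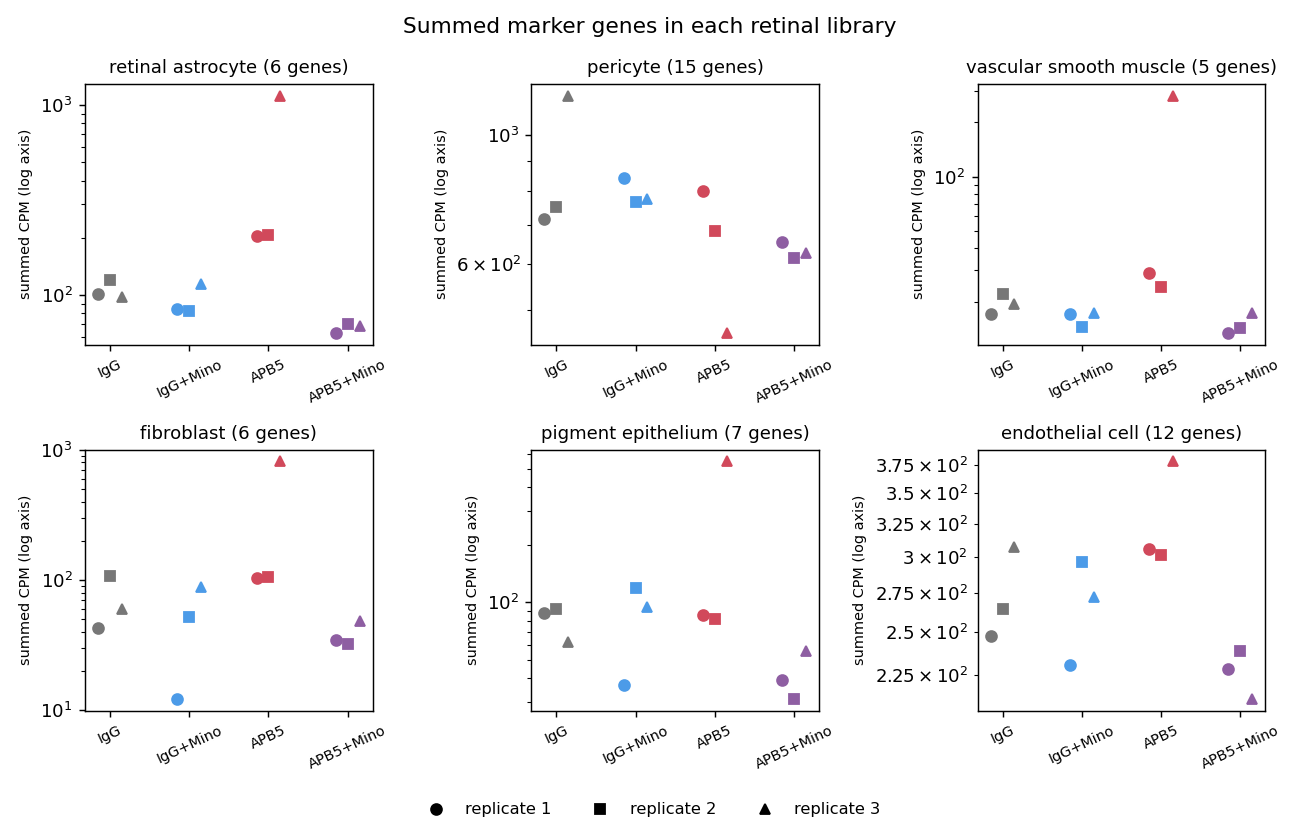
Summed CPM (vertical axes, logarithmic) of 6 marker lists in each library, by group. APB5 replicate 3 (red triangle) is the highest library for astrocyte, smooth muscle, fibroblast, pigment epithelium and endothelial markers and the lowest for pericyte markers, the last of which turned to the highest when Vtn was left out.

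Of the microglia markers, C1qa, Cx3cr1, Trem2, Aif1 and Tmem119 were highest in APB5 replicate 3 and P2ry12 in IgG replicate 3. C1qa, a complement gene of microglia, had 14.2, 13.0 and 118 CPM in APB5, 7.59 to 10.1 CPM in IgG and 3.41 to 3.78 CPM in APB5+Mino, and like Pdgfra was above every IgG library in each APB5 library. Its log2 fold changes were 2.52 and −3.77 (adjusted P = 0.664 and 0.055 by edgeR), and 0.66 and −1.92 with APB5 replicate 3 left out. The part of microglia in the levels of the PDGF genes was not tested. Cx3cr1, a chemokine receptor gene of these cells, fell in APB5+Mino against APB5 (log2 fold change −3.84, adjusted P = 0.0447 by edgeR), where 4.82% of all genes passed. It had −3.08 with APB5 replicate 3 left out. In that fit C1qa, Cx3cr1, Trem2, Aif1 and Tmem119 all fell (adjusted P of at most 0.0367 by edgeR) and P2ry12 did not pass (0.051), against 26.6% of all genes. Genes of ganglion cells, which make PDGFA in the young retina, had medians of −0.0068 for APB5 against IgG and −0.096 for APB5+Mino against APB5 on the log2 scale, and 0 of 8 passed in either. With APB5 replicate 3 left out these medians were −0.20 and 0.067, and 1 of 8 genes passed in the second (Rbpms, higher), against 26.6% of all genes. In APB5+Mino against IgG+Mino their median was −0.33, and 4 of 8 fell (Nefl, Nefm, Sncg and Thy1), where 8.09% of all genes passed. The Müller glia list had medians of 0.12 and −0.12, again with 0 of 6 passing. With APB5 replicate 3 left out they were 0.12 and −0.26, and 3 of 6 (Rlbp1, Aqp4 and Vim) fell in the second, where 26.6% of all genes passed. Against IgG+Mino the median in APB5+Mino was −0.19, and 1 of 6, Rlbp1, fell, against the same 8.09%.

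Downstream of the receptors, the genes of receptor-proximal signaling were close to even. Of 16 such genes (adaptors, lipid kinases and other enzymes that dock on activated PDGF receptors), the log2 fold changes had a median of 0.041 in APB5 against IgG, 0.051 in APB5+Mino against APB5, 0.070 in IgG+Mino against IgG and 0.058 in APB5+Mino against IgG+Mino. None passed the adjusted P in the first 3. The first pair of medians was 0.067 and 0.029 with APB5 replicate 3 left out, when 2 of 16 passed in the second (Rasa1 higher, Nck2 lower), against 26.6% of all genes. Nck2, an SH2 and SH3 adaptor, fell in APB5+Mino against IgG+Mino, with 12.7, 10.6 and 11.4 CPM against 15.7, 16.6 and 15.1 CPM (log2 fold change −0.45, SE 0.11, adjusted P = 0.0458 by edgeR). Nck2 was 1 of 16 to pass there, where 8.09% of all genes passed. It was also below APB5 (17.7, 15.5 and 26.0 CPM), with −0.79 (adjusted P = 0.062), and the groups did not overlap. That difference was −0.52 with APB5 replicate 3 left out. Src and Shc1, a kinase and an adaptor, had the smallest P in APB5 against IgG, with 0.32 and 0.36 (adjusted P = 0.672 and 0.689), and 0.14 for each with APB5 replicate 3 left out.

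Of the 5 genes of receptor down-regulation, Cbl, a ubiquitin ligase that marks activated receptors for degradation, rose in APB5+Mino against APB5. It had 49.1, 58.1 and 40.6 CPM in APB5 and 75.3, 101 and 83.3 CPM in APB5+Mino, without overlap (log2 fold change 0.80, SE 0.16, adjusted P = 0.0476 by edgeR). This was 1 of 5 genes, where 4.82% of all genes passed. Without APB5 replicate 3 its log2 fold change was 0.69 (adjusted P = 0.00861), again 1 of 5, against 26.6% of all genes. IgG+Mino libraries, at 48.9, 75.6 and 71.0 CPM, lay mostly above IgG (42.7, 49.0 and 39.3 CPM) too, with a log2 fold change of 0.58 and an adjusted P of 0.585. The other 4 genes did not pass in any comparison, among them the phosphatase gene Ptprj, with 0.71 in APB5 against IgG (adjusted P = 0.664), and 0.57 with APB5 replicate 3 left out.

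Genes of ligand processing, retention and uptake had a wide spread, with log2 fold changes from −0.35 to 4.24 in APB5 against IgG. Their median log2 fold change was 0.76 in APB5 against IgG, with 9 of 10 above 0, and −0.66 in APB5+Mino against APB5, with 8 of 10 below 0, where the medians of all genes were −0.0024 and −0.020. They were 0.27 and −0.12 when APB5 replicate 3 was left out, and the second then had 5 genes above and 5 below 0. None passed the adjusted P with all libraries. A2m, a protease inhibitor of plasma that also binds PDGF, had 7.57, 7.91 and 9.34 CPM in IgG, 25.5, 29.2 and 405.5 CPM in APB5 and 6.17, 6.87 and 5.87 CPM in APB5+Mino. Like Pdgfra, it was raised in each APB5 library and highest in replicate 3. Its log2 fold changes were 4.24 (adjusted P = 0.664 by edgeR) and −4.63 (adjusted P = 0.057), and 1.72 and −2.12 without APB5 replicate 3 (adjusted P = 0.0121 and 9.39e-05). Sparc, a matrix protein that binds PDGFB, had 0.99 and −1.18 (adjusted P = 0.664 and 0.0842), and Plau, the urokinase gene, whose protease can activate PDGFD, had −3.65 in APB5+Mino against APB5 (adjusted P = 0.0615). With APB5 replicate 3 left out, Sparc had 0.38 and −0.56 (adjusted P = 0.865 and 0.00523 by edgeR) and Plau −1.91 (adjusted P = 0.0183), while Lrp1, an endocytic receptor that takes up A2m, rose by 0.47 (adjusted P = 0.0234). In that fit 4 of the 10 genes passed, against 26.6% of all genes.

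Relatives of the family, the VEGF and class III receptor kinase genes, did not pass in any comparison with all libraries of its groups. Of these 8 genes, Kit, the stem cell factor receptor, had 0.53 and Pgf, placental growth factor, had 2.49 in APB5 against IgG (adjusted P = 0.664 for each), and 0.35 and 0.67 without APB5 replicate 3. Csf1r, the receptor kinase of microglia, had −2.10 in APB5+Mino against APB5 (adjusted P = 0.0692 by edgeR), and −0.99 without that library (adjusted P = 0.00355). In the latter fit 1 of the 8 genes passed, against 26.6% of all genes.

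The genes whose levels ran most like each PDGF gene over the 12 libraries were sought among 15810 genes by Pearson's r of log2 CPM, as a description in which APB5 replicate 3 weighs heavily. For Pdgfra they were A2m (r = 0.989, Spearman's coefficient 0.909), Jak3 (0.983) and Serping1 (0.981), a cytokine receptor kinase and a complement inhibitor among them, and r of A2m was 0.951 without APB5 replicates 2 and 3, the libraries farthest from the median. For Pdgfrb they were Slc9a3r1, a scaffold protein gene (0.983, and 0.812 without the 2 farthest libraries), Fmnl3 (0.961) and Acsf2 (0.960). For Pdgfd they were Notch3, a receptor of mural cells (0.960, and 0.907 without 2 libraries), Efcab12 (0.958) and Cr1l (0.951). Pdgfa ran with Hbegf (0.978), S100a6 (0.977) and Anxa2 (0.974), and Pdgfc with Fam234b (0.970), Zbtb42 (0.965) and Gm2a (0.964). Pdgfb had the lowest values, 0.923 with Slc16a11, 0.910 with Idh2 and 0.909 with Cyyr1.

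Among the 6 genes themselves, the likeness rested in large part on APB5 replicate 3. Pearson's r between the receptor genes was 0.807 over 12 libraries and 0.163 without that library. Between Pdgfra and Pdgfd it was 0.881 and 0.705 (Spearman's coefficient 0.895), and between Pdgfc and Pdgfd 0.876 and 0.734. Between Pdgfra and Pdgfc it was 0.762 and 0.409, since Pdgfra but not Pdgfc was high in APB5 replicates 1 and 2, and Pdgfc but not Pdgfra was low in APB5+Mino. Pdgfb and Pdgfrb, ligand and receptor of pericyte recruitment, had 0.529 and −0.0574.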

How the data were processed

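RNA-Seq was made from 12 mouse retinas. The authors made strand-specific poly-A libraries and counted single-end reads with the DRAGEN RNA pipeline on the mm39 genome and its NCBI annotation. The DRAGEN version is not given in the sources used here. Their deposited table gives raw read counts for each gene and library. Its 3 repeated columns, a copy of the table, and the authors' tables of fold changes and P values were not used.

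Groups came from the labels. Counts were analysed in R 4.3.3 with edgeR 4.0.16 (filterByExpr, TMM, prior count 2, quasi-likelihood test without robust estimation, Benjamini-Hochberg adjustment) and only the groups compared in a fit, except the interaction, fitted on all 12 libraries. Alternatives used DESeq2 1.42.0 and limma 3.58.1. Scripts were tested on simulated data. Tests were two-sided. Confidence intervals are at 95% and use the degrees of freedom of edgeR's test. Total counts of 52740545 to 59411044 per library set the precision, and a count of 3 was 0.0448 to 0.0587 CPM. RPKM values were computed here from CPM and exon lengths of GENCODE vM39 on GRCm39. Promoter windows were those of RefSeq on GRCm38.p6, and those of 4 of the 6 genes were used (Pdgfa, Pdgfc, Pdgfd and Pdgfra). Pdgfb had no window in the set, and any window of Pdgfrb was left out of the search.

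No libraries of a group agreed within sampling noise. Libraries of different groups share replicate numbers. For APB5+Mino against APB5, deviations from the group means correlated by 0.119, 0.169 and 0.127 for equal numbers and by −0.133 to 0.0112 for unequal ones. A fit blocked on replicate number is therefore given beside the main fit of that comparison, which had no block. The labels name no pairing, and these correlations cannot settle it. Deviations cancel within a group, so the values are not independent, and replicate 3 is the library high in Xist in both groups. The other pairs of groups each had a same-number correlation under 0.1.

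The 6 genes, the gene lists and the tests were chosen with earlier results of these data known. Genes named are the 6, up to 3 genes per list, comparison and direction by smallest P among those that passed, or in all where none did, the most abundant gene of a marker list and the 3 genes most like each PDGF gene among those with a mean of at least 1 CPM. Lum, Cnn1, Gnat1 as a check of the tissue, Olig1, Olig2, Sox10, Mog, Mobp, Kcnj8, Atp13a5, Col1a2, Col3a1, Rasa1, Rbpms, Aqp4, Vim, Lrp1, Trem2, Aif1, Tmem119, P2ry12 and the last of the 4 ganglion cell genes by P (Nefl) were named after their values were seen. Some marker genes, and the sums that hold them, are not reported here.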

Additional observations from a re-analysis of the deposited data

How the results depend on the processing

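Calls among the 6 genes depended on the method. In APB5 against IgG, DESeq2 and log2 CPM of Xist as a covariate each called 1 gene, Pdgfra (0.428% and 5.57% of all genes), and the other settings 0. In each comparison the Xist covariate is set largely by replicate 3 of APB5 and APB5+Mino, so it cannot separate sex from other traits of APB5 replicate 3. In APB5+Mino against APB5, DESeq2, voom with quality weights, no count filter, all 12 libraries in a fit, the Xist covariate and only libraries low in Xist each called 2 genes, Pdgfra and Pdgfc, where in that order 7.55%, 7.07%, 1.71%, 7.65%, 9.05% and 2.82% of all genes were called. At least 10 counts in every library called 1, Pdgfra (2.51% of all genes), and leaving out a library called 0 to 2. In IgG+Mino against IgG, voom called 1, Pdgfb (0.616% of all genes). In APB5+Mino against IgG+Mino, where Pdgfc was called, voom called 2 (2.93% of all genes), library size only called 0 (1.26%), all 12 libraries and the Xist covariate called 0 (0% each), and leaving out a library called 0 to 2. Pdgfc then had log2 fold changes of −0.99, −1.02 and −1.26 (adjusted P = 0.0229, 0.187 and 0.105 by edgeR), and −1.19 to −0.93 with a library left out. In the interaction, DESeq2, voom and the Xist covariate each called 2, Pdgfra and Pdgfc, and 1.86%, 4.93% and 4.39% of all genes. The cause of these changes was not tested.

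Some signs turned, in results that were not called. With only libraries low in Xist, Pdgfb was 0.019 in APB5+Mino against APB5. In IgG+Mino against IgG, Pdgfc was 0.018 with voom, Pdgfd −0.059 and Pdgfrb −0.012 with library size only, and Pdgfa, Pdgfc and Pdgfra 0.36, 0.69 and 0.66 with the Xist covariate. With a library left out there, Pdgfa ranged from −0.11 to 0.0065, Pdgfc from −0.14 to 0.14, Pdgfd from −0.092 to 0.13, Pdgfra from −0.16 to 0.026 and Pdgfrb from −0.053 to 0.29. Pdgfra ranged from −0.15 to 0.035 in APB5+Mino against IgG+Mino. With the Xist covariate the interaction of Pdgfb was −0.033.

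With the replicate number as a replicate block, no call among the 6 genes changed. Pdgfc had −1.004 in APB5+Mino against IgG+Mino (adjusted P = 0.013 by edgeR), where Pdgfb, at 0.89, then had an adjusted P of 0.0326 and 20.2% of all genes passed. Pdgfra had 1.44 in APB5 against IgG (adjusted P = 0.687 by edgeR). Of all genes in APB5+Mino against APB5, 170 rose and 166 fell without the block and 0 passed with it. DESeq2 gave 524 and 1007, the fit of all 12 libraries 481 and 1142, leaving out APB5 replicate 2 740 and 1049 and APB5 replicate 3 402 and 521, and the count was 1 without APB5 replicate 1 and 0 without any single APB5+Mino library. Library size in place of TMM moved the median log2 fold change of all genes there from −0.020 to −0.11, and called 0 and 5 genes. Counts as low as 65 reads limit the precision of Pdgfb.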
